A study of Homo sapiens with 32 samples.

Results

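The genes described here are 38 targets and partners of the amino acid stress response in RH4, an established cell line from a human alveolar rhabdomyosarcoma. They were taken by symbol from a fixed list of 19 stress genes around the transcription factor ATF4 and 19 genes for cytosolic tRNA synthetases. All 38 were among the 18980 coding genes listed in each library, and all 38 passed the filter on low counts that left 13260 genes tested. The measurements were 20 RNA-seq libraries of total RNA, 1 for each condition, out of 32 samples in the series. For 16 of them each of the 4 compounds A485, dCBP, IHK-44 and JQAD was given at doses of 100 and 1000 nM, with collection after 2 and 6 h, and the series describes these compounds as inhibitors or degraders of the histone acetyltransferases CBP and p300. A485 is known as an inhibitor of their catalytic activity, and the labels do not say how the other compounds act. The other 4 libraries were of cells given DMSO, the solvent, and of a condition labelled NT that the labels do not spell out, each at 2 h and 6 h. All groups shared 1 cell line, its medium with serum, and plating 1 day ahead of treatment.

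Cells that run short of amino acids, or whose endoplasmic reticulum is overloaded, phosphorylate the translation factor eIF2 and make more ATF4 protein from the mRNA already present. ATF4 then switches on genes that import amino acids, build serine and asparagine, charge tRNAs and, after lasting stress, lead to cell death. Because ATF4 is controlled largely at translation, its mRNA level is a poor guide to its activity. The tRNA synthetases attach amino acids to their tRNAs, are needed in every dividing cell, and several of them are counted among the ATF4 targets.

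ATF4 binds with C/EBP partners to a short composite DNA element, so the promoters of the listed genes are shown first, with the element in capitals. The letters TGATGCAA and their reverse complement TTGCATCA were searched in RefSeq promoters of build GRCh38.p14, from 250 bases before to 50 bases after each start site. The genes printed are 5 with this core that begins before the start site, and ASNS, which holds the looser form TGATGNAA (reverse complement TTNCATCA) and was chosen after the matches were seen. Each line gives 60 bases, 5′ to 3′ on the gene's own strand, from chr15:40953236-40953295 (plus strand, CHAC1), chr16:70289660-70289719 (minus strand, AARS1), chr9:92293698-92293757 (minus strand, IARS1), chr11:3057418-3057477 (minus strand, CARS1), chr12:57488012-57488071 (plus strand, MARS1) and chr7:97872443-97872502 (minus strand, ASNS).
CHAC1: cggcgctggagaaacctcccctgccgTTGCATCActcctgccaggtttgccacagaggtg
AARS1: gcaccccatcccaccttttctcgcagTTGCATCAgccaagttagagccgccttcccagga
IARS1: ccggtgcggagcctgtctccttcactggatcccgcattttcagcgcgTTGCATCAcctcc
CARS1: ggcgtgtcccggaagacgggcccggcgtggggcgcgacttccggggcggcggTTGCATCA
MARS1: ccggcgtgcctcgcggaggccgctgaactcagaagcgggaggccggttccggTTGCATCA
ASNS: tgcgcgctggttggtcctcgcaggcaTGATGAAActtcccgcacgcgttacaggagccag

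The table held promoters for 32 of the 38 genes, 16 stress genes and 16 synthetases. The core was in 1 of 16 stress genes, CHAC1, and in 6 of 16 synthetases, AARS1, CARS1, IARS1, MARS1, NARS1 and TARS1. Of all 35116 promoters in the table, 304 held it, which is 0.866%, and of all 27305 gene symbols there 1.08% had a promoter with it. The looser form, which includes every core match, was in 3.62% of all promoters and 4.46% of symbols, in 4 of 16 stress genes (ATF3, CHAC1, ASNS and SLC3A2) and in 7 of 16 synthetases. The first base of the match lay 209 bases before the start site in CHAC1, 187 before it in AARS1 and 68 before it in ASNS. In IARS1, MARS1 and CARS1 it lay 13, 4 and 2 bases before it. These are matches of letters in a window and were not tested as binding sites. The promoters of VARS1, SHMT2, YARS1, LARS1, PSPH and SLC7A11 were not analysed here.

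Library depth ran from 13466631 to 16799327 coding counts. All 8 markers of rhabdomyosarcoma fixed for the line were at 1 CPM (counts per 1000000 coding counts) or more in every library. Their summed level was 2524 to 2748 CPM in the 4 control libraries and 1154 to 3056 CPM in the treated ones. All 5 immune and all 5 epithelial markers, and 4 of 5 endothelial ones, were under 1 CPM in every library. Depth and these markers were not tested as a part of the results below. RNA was measured in bulk, so fewer cells and less RNA per cell cannot be told apart.

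Levels between genes were compared per length, in FPKM (fragments scaled to gene length and library size, as the authors deposited them), as the median of the 4 control libraries. The synthetases were evenly high, from 20.35 FPKM for CARS1 to 90.71 FPKM for MARS1. The stress genes ran from 2.085 FPKM for SLC7A11, the cystine and glutamate exchanger, and 2.435 FPKM for CHAC1, which breaks down glutathione, to 161.8 FPKM for SHMT2 and 226.8 FPKM for ATF4. ATF4 mRNA stood above 98.7% of all listed genes on that scale, and CHAC1 above 47.5%. Across all 20 libraries the highest CPM was 1.19 to 1.72 times the lowest in the synthetases, and all 19 stayed under 2-fold. In the stress genes this ratio ran from 1.36 for PSPH to 10.6 for SLC7A11, and 11 of 19 stayed under 2-fold. The lowest count of a listed gene in any library was 34, for CHAC1.

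Tests were made with edgeR on the counts, with DMSO and NT together as controls and the 100 nM and 1000 nM libraries of a compound together, since each condition had 1 library. The p-values therefore measure the spread between such pairs of libraries, which holds any effect of dose and of DMSO against NT and need not show how separate cultures vary. A gene was counted as changed at a Benjamini-Hochberg adjusted p under 0.05 over all genes tested. Where libraries are said to lie above or below the controls, this describes the printed values. The share of all genes doing so is not given here. Fitted changes are in log2 with their standard error (SE), 1 unit being a doubling. They use TMM scaling, which sets the bulk of genes as equal between libraries, while CPM takes the total as equal. At 6 h the total scale placed the median gene higher than TMM did by 0.157 with dCBP and 0.169 with IHK-44 (log2), so a gene can look flat in CPM and lower in the fit. Counts under total counts, a scaling added after seeing the data, are given beside the main ones where their directions part.

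The first question was how these genes moved with time in culture without an active compound. In DMSO and NT, the 5 lowest fitted differences, 6 h minus 2 h, were those of CHAC1, ATF3, DDIT4, ATF4 and CEBPB, each with lower CPM at 6 h in both control pairs. TRIB3, SESN2, SLC7A11, SLC3A2, PSPH and VLDLR also had lower CPM at 6 h in both pairs, but with the spread shared by all 20 libraries none of the 38 members passed the test. The fitted differences of the synthetases lay between -0.10 and 0.18. ATF4 mRNA was 332.1 CPM in DMSO and 327.2 CPM in NT at 2 h, and 245.3 and 256.8 CPM at 6 h, a fitted difference of -0.39 (SE 0.09, adjusted p = 0.142). The count of 0 of 38 stands beside 0.0754% of all genes (10 of 13260, with 1171 at an unadjusted p under 0.05). By DESeq2 1 member passed. Of the 38 members, 3 stress genes (ATF4, CHAC1 and CEBPB) and 1 synthetase (NARS1) had an unadjusted p under 0.05. CHAC1 was 4.56 and 8.12 CPM at 2 h in DMSO and NT and 2.85 and 2.64 CPM at 6 h. The fitted difference was -1.20 for CHAC1 (SE 0.37), -0.57 for ATF3 (SE 0.34), -0.44 for DDIT4 (SE 0.25) and -0.31 for CEBPB (SE 0.14).

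The answer for ATF4 depended on which libraries set the spread. With the 4 DMSO and NT libraries alone and the treatment as a block, 5 members passed (ATF4, ATF3, CHAC1, DDIT4 and CEBPB, all lower at 6 h). That fit leaves very few residual degrees of freedom to estimate the spread. With DMSO, NT and JQAD together, 2 passed, ATF4 and CHAC1. The share of all genes passing in these fits, or by DESeq2, is not given here. In CPM ATF4 was lower at 6 h in 10 of 10 pairs of libraries of the same treatment and dose, with a ratio of 6 h to 2 h between 0.739 and 0.907. ATF3, PSPH and WARS1 were also lower at 6 h in 10 of 10 pairs, and NARS1, the asparagine tRNA synthetase, was higher in 10 of 10 with a ratio between 1.03 and 1.20. The 10 pairs include those of A485, dCBP and IHK-44, so these counts do not show culture time alone. The share of all genes with such a pattern is not given here. The median fitted difference between the times in controls was -0.090 for the stress genes and 0.046 for the synthetases, beside -0.001 for all genes tested.

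**Figure D1:**
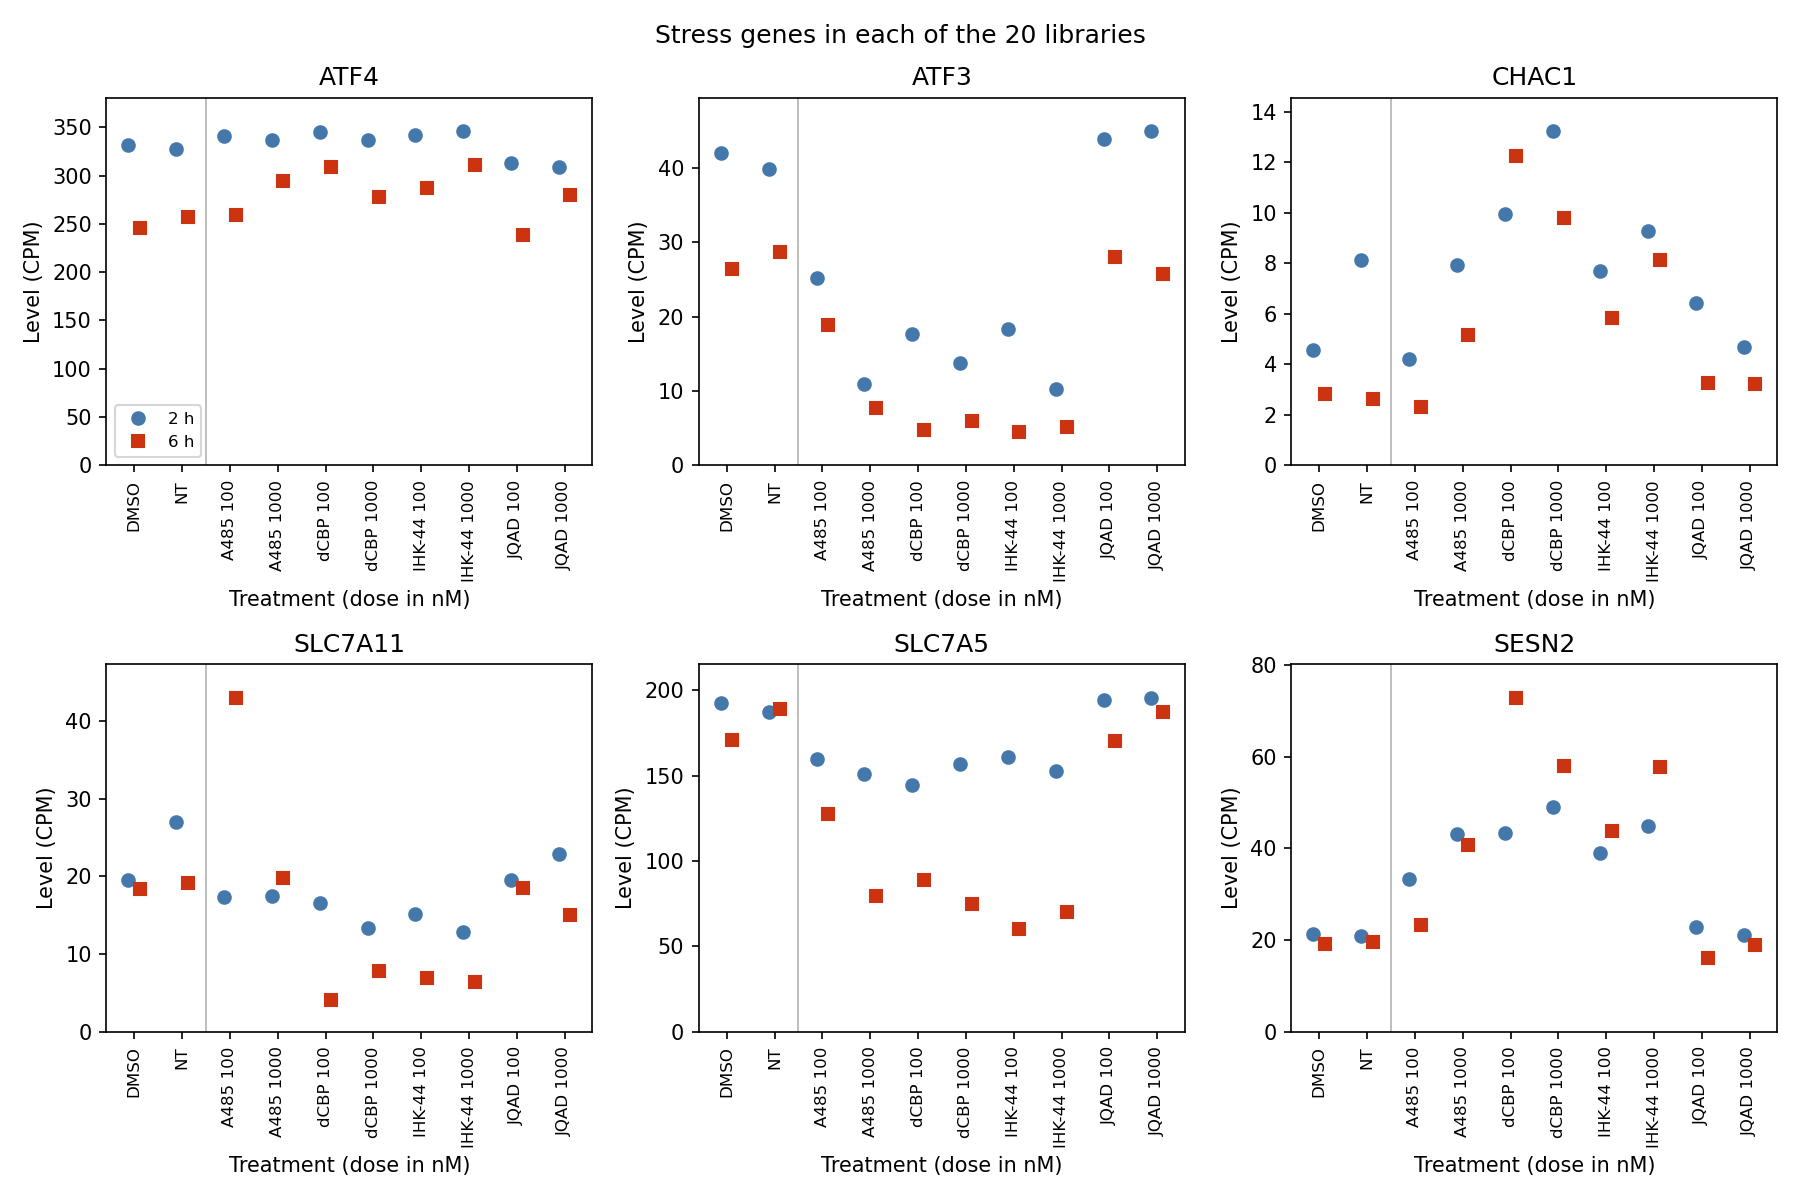
Level in CPM (y axis, linear from 0) of ATF4 and the 5 stress genes with the largest change past the threshold at 6 h, in each of the 20 libraries (x axis: treatment and dose in nM; circles 2 h, squares 6 h; 1 library per point, no error bar). ATF4 squares lie below the circles in all 10 treatments, and ATF3, SLC7A5 and SLC7A11 are low and SESN2 and CHAC1 high at 6 h with dCBP and IHK-44, while JQAD lies near DMSO and NT.

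The next question was how each compound changed the genes against the controls of the same time. With dCBP and IHK-44 the stress genes split: SESN2, CHAC1 and DDIT3 rose, while ATF3, DDIT4, TRIB3 and the amino acid transporters SLC7A11, SLC7A5 and SLC3A2 fell, and ATF4 mRNA did not pass the test with any compound. At 6 h IHK-44 raised 4 of 19 stress genes and lowered 9, beside 20.7% of all genes higher and 21.4% lower. dCBP raised 5 and lowered 7, beside 23.2% higher and 22.4% lower. A485 raised 1 and lowered 4 at 6 h, beside 7.87% and 8.7%. No member passed with JQAD at 2 h or 6 h, beside 0.0% of all genes at each time. At an unadjusted p under 0.05 there were 138 genes at 2 h and 284 at 6 h.

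At 2 h fewer genes had moved. With dCBP, DDIT3 and SESN2 rose and ATF3, DDIT4 and VLDLR fell, beside 5.63% of all genes called, 2.96% higher and 2.67% lower. With IHK-44, SESN2 rose and the same 3 genes fell, beside 4.88% called, 2.43% higher and 2.45% lower. With A485 no member passed, beside 0.0452% of all genes (6 of 13260). An unadjusted p under 0.05 was found for 5 stress genes, beside 1564 of all 13260 genes. No synthetase passed with any compound at 2 h. Of the 2 h calls, DDIT4 with IHK-44 alone was kept in every fit that left out 1 library of the contrast. Each other call at 2 h was lost in at least 3 of 4 such fits, with adjusted p-values up to 0.33 for DDIT3 with dCBP.

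Transcription factors come first. ATF4, the factor that carries the response, was 245.3 CPM in DMSO and 256.8 CPM in NT at 6 h. It was 259.6 and 294.3 CPM with 100 and 1000 nM A485, 309.0 and 277.8 CPM with dCBP, 287.5 and 310.7 CPM with IHK-44, and 238.3 and 279.7 CPM with JQAD. The fitted change at 6 h lay between 0.04 for JQAD and 0.08 for IHK-44 (SE 0.09 in each), with an adjusted p of 0.474 for IHK-44 and 0.548 for dCBP. With total counts as the scaling ATF4 passed as higher, by 0.253 with IHK-44 (adjusted p = 0.0234) and 0.225 with dCBP (adjusted p = 0.0403). At 2 h all 8 treated libraries of ATF4 lay between 308.5 and 345.8 CPM.

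ATF3, a factor induced early in many stresses, had the largest fitted change of the 38 genes at 6 h. It was 42.0 CPM in DMSO and 39.8 CPM in NT at 2 h, and 26.3 and 28.6 CPM at 6 h. At 2 h it was 25.2 and 10.99 CPM with 100 and 1000 nM A485, 17.7 and 13.8 CPM with dCBP, 18.3 and 10.3 CPM with IHK-44, and 43.9 and 44.9 CPM with JQAD. At 6 h it was 18.9 and 7.66 CPM with A485, 4.74 and 5.97 CPM with dCBP, 4.46 and 5.17 CPM with IHK-44, and 28.0 and 25.8 CPM with JQAD. Every library of A485, dCBP and IHK-44 was below both controls of its time, and JQAD was at their level. The fitted change at 6 h was -2.68 with IHK-44 (SE 0.40, adjusted p = 7.62e-05), -2.52 with dCBP (SE 0.41, adjusted p = 0.000143) and -1.13 with A485 (SE 0.37, adjusted p = 0.0442).

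DDIT3 (CHOP), a factor that promotes cell death under lasting stress, moved the other way. Its values were chosen for printing after they were seen. At 6 h it was 10.1 CPM in DMSO and 7.59 CPM in NT, 9.76 and 12.9 CPM with 100 and 1000 nM A485, 22.4 and 18.51 CPM with dCBP, 15.9 and 14.5 CPM with IHK-44, and 8.06 and 9.17 CPM with JQAD. Both dCBP and both IHK-44 libraries were above the controls. The change was 1.06 with dCBP (SE 0.19, adjusted p = 0.00036) and 0.62 with IHK-44 (SE 0.19, adjusted p = 0.0165). CEBPB, the C/EBP partner of ATF4, rose by 0.43 with dCBP (SE 0.14, adjusted p = 0.0179), while with IHK-44 its difference was -0.01. ATF5, another factor of the family, did not pass, with changes between 0.25 and 0.28 for A485, dCBP and IHK-44 at 6 h (SE 0.19).

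Among the stress effectors, SESN2, a sestrin that senses leucine and restrains mTORC1, was 21.3 and 20.8 CPM in DMSO and NT at 2 h and 19.1 and 19.6 CPM at 6 h. At 6 h it was 23.2 and 40.7 CPM with 100 and 1000 nM A485, 72.9 and 58.0 CPM with dCBP, 43.8 and 57.8 CPM with IHK-44, and 15.98 and 18.99 CPM with JQAD. It already lay at 33.4 and 43.1 CPM with A485, 43.2 and 49.0 CPM with dCBP and 38.9 and 44.8 CPM with IHK-44 at 2 h. All 12 libraries of A485, dCBP and IHK-44 were above the controls, and the 4 of JQAD ran from 15.98 to 22.7 CPM. SESN2 rose at 6 h by 1.60 with dCBP (SE 0.20, adjusted p = 1.72e-05), 1.22 with IHK-44 (SE 0.20, adjusted p = 0.000166) and 0.63 with A485 (SE 0.20, adjusted p = 0.0442).

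CHAC1 at 6 h was 9.81 to 12.3 CPM with dCBP and 5.83 to 8.12 CPM with IHK-44, beside 2.64 and 2.85 CPM in the controls. With A485 it was 2.32 CPM at 100 nM and 5.17 CPM at 1000 nM, on either side of the controls, and with JQAD 3.25 and 3.23 CPM. At 2 h it was 9.94 and 13.2 CPM with 100 and 1000 nM dCBP, 7.71 and 9.28 CPM with IHK-44, 4.20 and 7.95 CPM with A485, and 6.43 and 4.69 CPM with JQAD. At 2 h both libraries of dCBP, and of no other compound, were above both controls, since NT stood at 8.12 CPM. The rise at 6 h was 1.85 with dCBP (SE 0.36, adjusted p = 0.00063) and 1.17 with IHK-44 (SE 0.37, adjusted p = 0.0165).

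DDIT4 (REDD1), another brake on mTORC1, had the largest fitted change of the 38 genes at 2 h, and its values too were chosen for printing after they were seen. At 2 h it was 22.9 and 24.1 CPM in DMSO and NT, 11.1 and 6.14 CPM with 100 and 1000 nM A485, 7.36 and 9.39 CPM with dCBP, 5.14 and 4.08 CPM with IHK-44, and 21.3 and 21.6 CPM with JQAD. At 6 h it was 17.8 and 16.7 CPM in the controls, 13.3 and 7.91 CPM with A485, 12.96 and 10.7 CPM with dCBP, 8.87 and 9.50 CPM with IHK-44, and 15.7 and 22.6 CPM with JQAD. The A485, dCBP and IHK-44 libraries all lay below the controls at both times. The change of DDIT4 with IHK-44 was -2.39 at 2 h (SE 0.29, adjusted p = 0.00095) and -1.079 at 6 h (SE 0.27, adjusted p = 0.00433). TRIB3, a pseudokinase that dampens ATF4, fell by 0.72 with IHK-44 and 0.56 with dCBP at 6 h (SE 0.14 in each).

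The transporters fell together with dCBP and IHK-44. SLC7A5 (LAT1), which imports leucine and other large neutral amino acids, was 170.6 and 189.2 CPM in DMSO and NT at 6 h. It was 127.7 and 79.2 CPM with 100 and 1000 nM A485, 88.8 and 74.5 CPM with dCBP, 60.1 and 70.0 CPM with IHK-44, and 170.5 and 187.0 CPM with JQAD. At 2 h it was 192.5 and 187.0 CPM in the controls. The 6 libraries of A485, dCBP and IHK-44 ran from 144.8 to 160.9 CPM, but the change did not pass at that time. JQAD was 194.5 and 195.7 CPM at 2 h. The change at 6 h was -1.64 with IHK-44 (SE 0.18, adjusted p = 5.27e-06), -1.29 with dCBP (SE 0.17, adjusted p = 3e-05) and -0.88 with A485 (SE 0.17, adjusted p = 0.00522).

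SLC7A11 did not fall with A485 at 6 h as it did with dCBP and IHK-44. At 6 h it was 18.3 and 19.2 CPM in DMSO and NT, 43.0 CPM with 100 nM A485 and 19.8 CPM with 1000 nM A485. With dCBP it was 4.04 and 7.82 CPM, with IHK-44 6.91 and 6.38 CPM, and with JQAD 18.4 and 15.0 CPM at 100 and 1000 nM. At 2 h it was 19.4 and 27.0 CPM in the controls, 17.3 and 17.4 CPM with A485, 16.6 and 13.4 CPM with dCBP, 15.1 and 12.8 CPM with IHK-44, and 19.5 and 22.8 CPM with JQAD. The single 100 nM A485 library at 6 h was the highest of all 20, and no other library repeats that condition. The change of SLC7A11 at 6 h was -1.83 with dCBP (SE 0.33, adjusted p = 0.000386) and -1.67 with IHK-44 (SE 0.32, adjusted p = 0.000642), while that of 0.67 with A485 did not pass (SE 0.29, adjusted p = 0.119). SLC3A2, the chain that both SLC7A5 and SLC7A11 need at the membrane, fell by 0.65 with IHK-44 and 0.57 with dCBP (SE 0.13 in each). With 100 and 1000 nM A485 SLC3A2 was 90.7 and 75.3 CPM at 6 h and did not pass. The controls were at 100.6 CPM in DMSO and 100.7 CPM in NT.

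The biosynthetic enzymes moved less. Of the serine pathway enzymes, PSPH fell at 6 h with A485, dCBP and IHK-44 by 0.37, 0.34 and 0.31 (SE 0.10 in each), PSAT1 fell by 0.28 with IHK-44 (SE 0.11, adjusted p = 0.0401), and PHGDH did not pass with any compound against the controls. ASNS, asparagine synthetase, rose by 0.38 with IHK-44 (SE 0.15, adjusted p = 0.0449), and with dCBP its change of 0.37 just missed (adjusted p = 0.0516). In the mitochondrial folate enzymes, MTHFD2 rose by 0.24 with dCBP (SE 0.08, adjusted p = 0.0205), and SHMT2 did not pass. VLDLR, a lipoprotein receptor, fell at 6 h with A485 and IHK-44 and at 2 h with dCBP and IHK-44, by 0.38 to 0.61. PSPH, PSAT1 and ATF4 have related pseudogenes, and how reads were split between copies is not given in the sources used here.

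**Figure D2:**
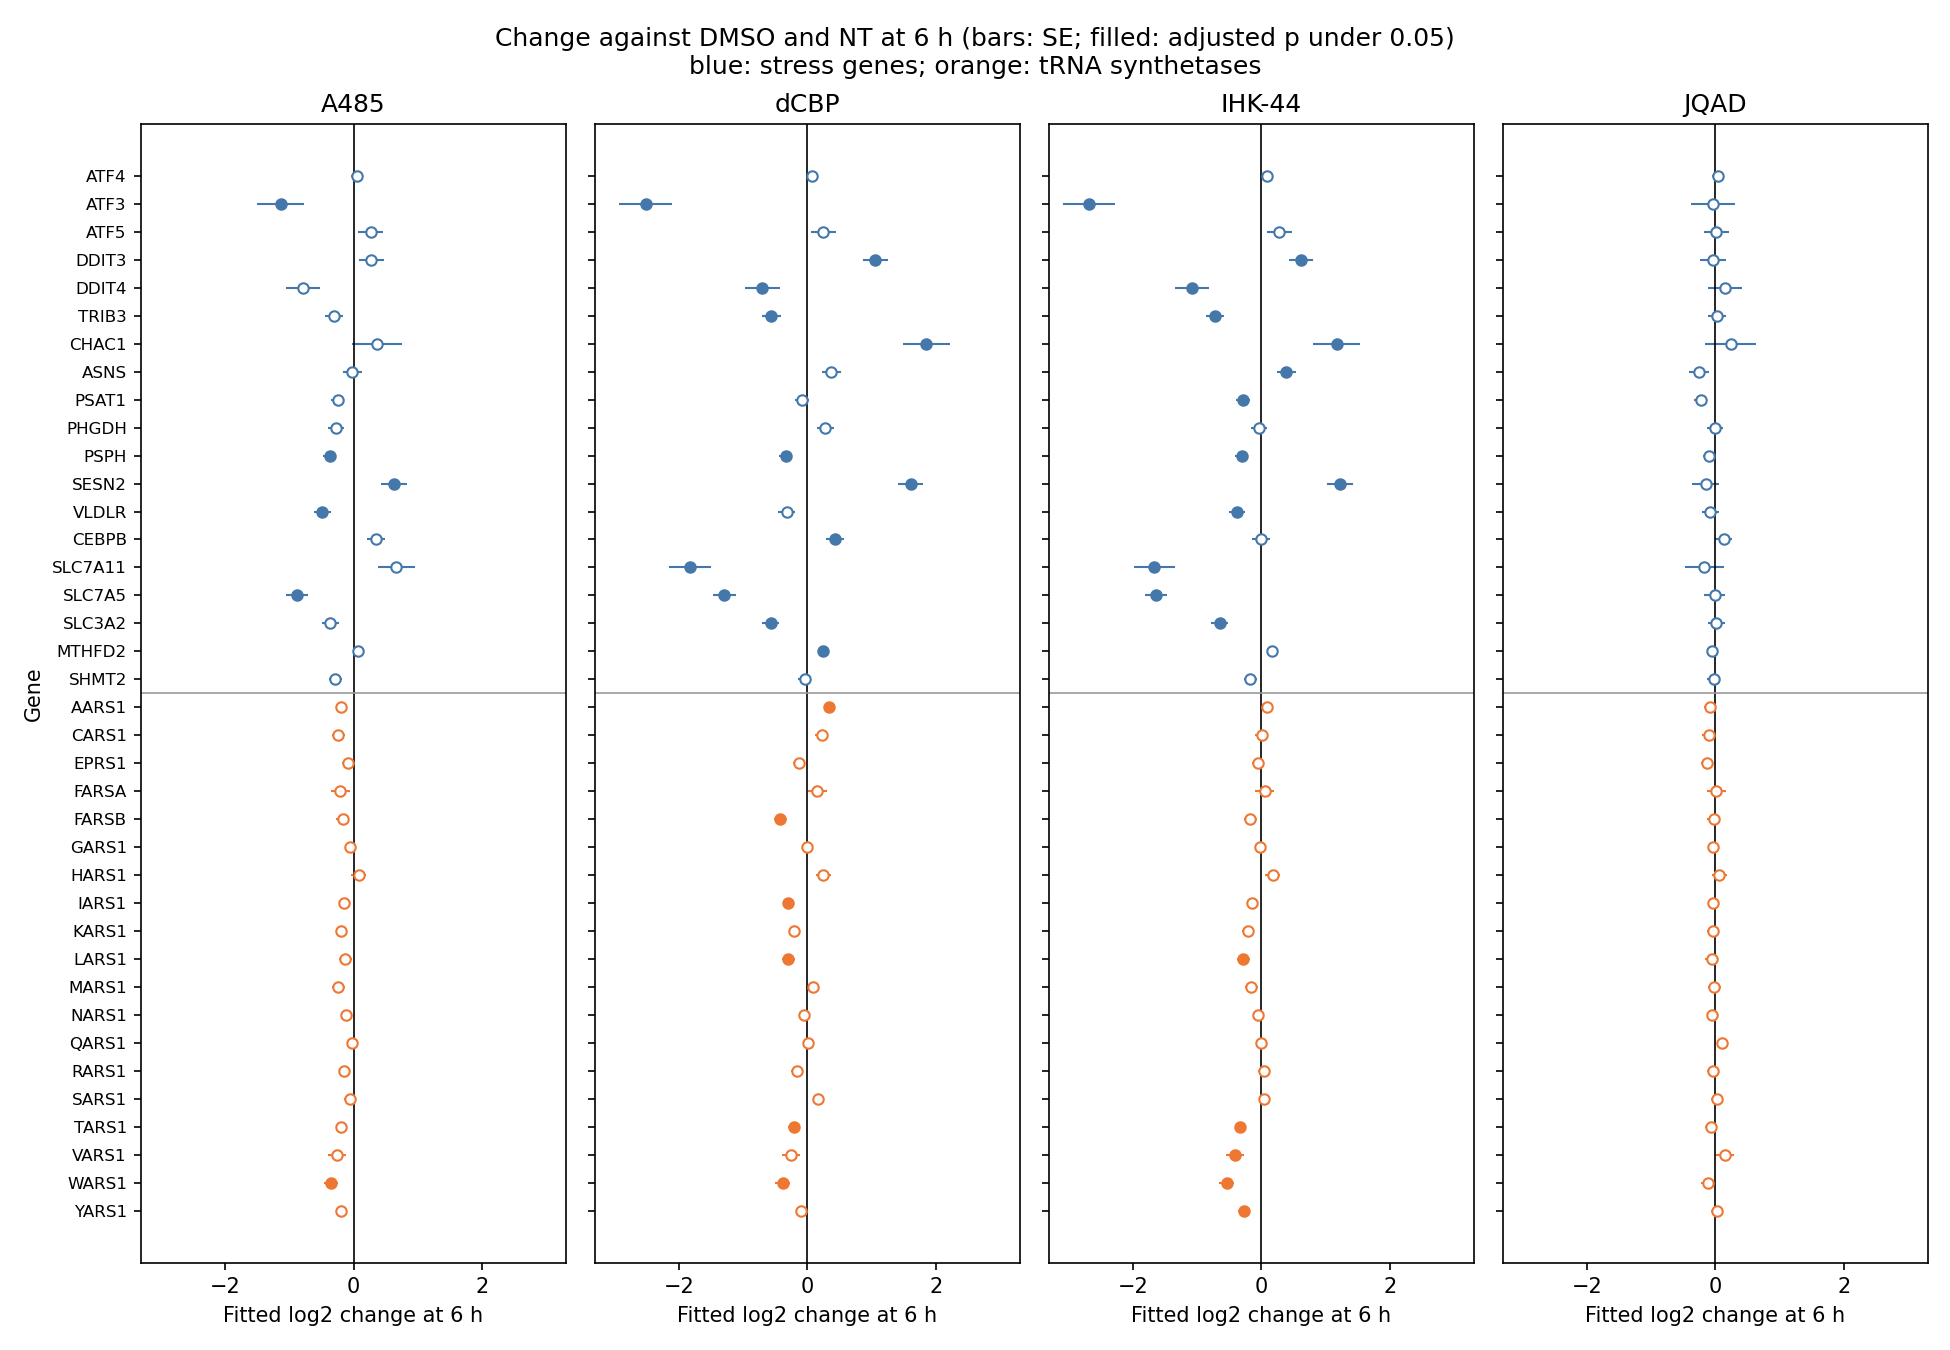
Fitted log2 change against DMSO and NT at 6 h (x axis) for the 38 genes (y axis; blue stress genes, orange synthetases), 1 panel per compound, with SE bars and filled points for an adjusted p under 0.05. The filled stress genes run from -2.68 to 1.85, the filled synthetases from -0.54 to 0.34, and the JQAD panel has none.

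Not all calls rested on every library. With IHK-44 at 6 h, ATF3, DDIT4, SESN2, SLC3A2, SLC7A11, SLC7A5 and TRIB3 were called in all 4 fits that left out 1 of the compound's or the controls' libraries at that time. With dCBP these were ATF3, CHAC1, DDIT3, SESN2, SLC3A2, SLC7A11, SLC7A5 and TRIB3. CHAC1 with IHK-44 lost the call without DMSO, NT or 1000 nM IHK-44 (adjusted p up to 0.124), and DDIT3 with IHK-44 without NT or 100 nM IHK-44 (up to 0.177). DDIT4 with dCBP lost it without any 1 of the 4 libraries (up to 0.189). PSPH and VLDLR with IHK-44 lost it without DMSO, NT or 100 nM IHK-44, and PSPH with dCBP without DMSO or 100 nM dCBP. ASNS and PSAT1 with IHK-44 lost the call without any 1 of the 4 libraries. CEBPB with dCBP lost it without NT or 100 nM dCBP, and MTHFD2 without NT or 1000 nM dCBP.

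For A485, all 5 stress genes called at 6 h lost the call without the 1000 nM A485 library, and all 5 without NT. With DMSO alone as the control no member passed for A485 at 6 h. Under total counts as the scaling the split of higher to lower stress genes at 6 h became 6 to 6 with IHK-44, 8 to 5 with dCBP and 2 to 2 with A485. The split over all 13260 genes was 4699 to 2166 with IHK-44, 4703 to 2158 with dCBP and 1655 to 967 with A485. The background was thus tilted to higher genes under this scaling. PSPH with all 3 compounds, VLDLR with A485 and IHK-44, PSAT1 with IHK-44 and DDIT4 with dCBP then no longer passed, nor did VLDLR with dCBP at 2 h. ATF3, SESN2, SLC7A5, SLC7A11, SLC3A2, TRIB3, CHAC1 and DDIT3 passed in the same direction under both scalings with both dCBP and IHK-44.

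**Figure D3:**
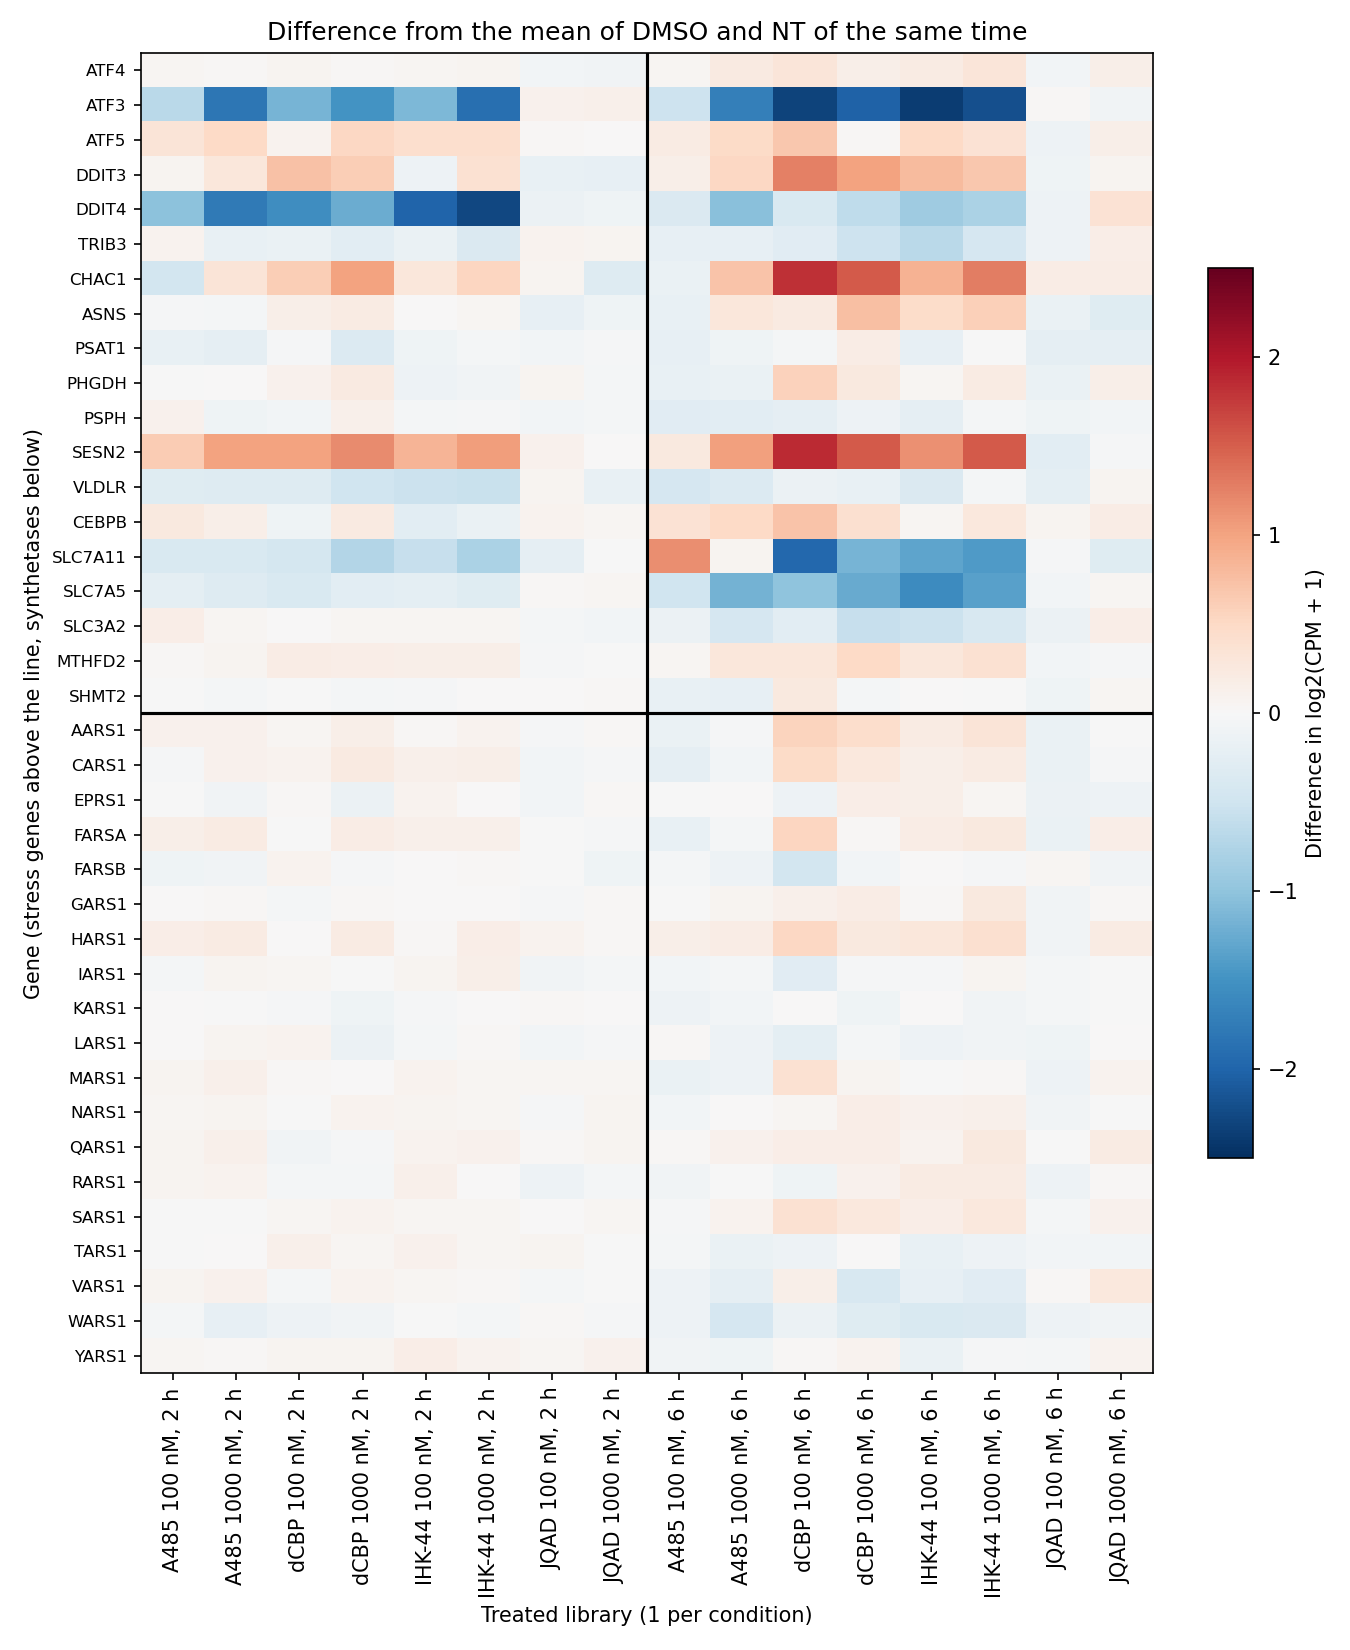
Difference in log2(CPM + 1) from the mean of DMSO and NT of the same time (colour; red higher, blue lower) for the 38 genes (rows; stress genes above the line) in the 16 treated libraries (columns; 2 h left, 6 h right). ATF3, DDIT4, SLC7A11 and SLC7A5 are blue and SESN2, CHAC1 and DDIT3 red with dCBP and IHK-44 at 6 h, while the synthetase rows and the JQAD columns are pale.

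The synthetases were set against the same controls. They were close to level: 8 of 19 passed with any compound, all at 6 h, and the largest change past the threshold was -0.54. With IHK-44, LARS1, TARS1, VARS1, WARS1 and YARS1 fell, 5 of 19 beside 21.4% of all genes lower. With dCBP, FARSB, IARS1, LARS1, TARS1 and WARS1 fell, 5 of 19 beside 22.4%, and AARS1 rose, 1 of 19 beside 23.2% higher. With A485, WARS1 fell, 1 of 19 beside 8.7%, and with JQAD none passed. The median change at 6 h was -0.061 with IHK-44, -0.102 with dCBP and -0.170 with A485, beside 0.057, 0.065 and 0.019 over all genes tested.

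The counts in each direction were not the same under both scalings. With total counts 3 synthetases were higher and 1 lower with IHK-44, and 5 higher and 2 lower with dCBP. Of all 13260 genes, 4699 were then higher and 2166 lower with IHK-44, and 4703 higher and 2158 lower with dCBP. The higher synthetases were then AARS1, HARS1 and SARS1 with both compounds, and CARS1 and MARS1 with dCBP. WARS1 with both compounds, and FARSB and AARS1 with dCBP, kept their direction and their call. The falls of LARS1 and TARS1 with both compounds, IARS1 with dCBP, and VARS1 and YARS1 with IHK-44 passed under TMM and not under total counts. WARS1 with A485 did not pass under total counts either.

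WARS1, the tryptophan tRNA synthetase, was 115.0 and 113.2 CPM in DMSO and NT at 2 h and 111.2 and 106.1 CPM at 6 h. At 6 h it was 98.8 and 81.2 CPM with 100 and 1000 nM A485, 97.6 and 87.3 CPM with dCBP, 83.3 and 84.4 CPM with IHK-44, and 99.9 and 102.0 CPM with JQAD. At 2 h the treated libraries ran from 98.9 to 116.0 CPM. All 8 treated libraries at 6 h, JQAD included, were below both controls. The change was -0.54 with IHK-44 (SE 0.11, adjusted p = 0.000913), -0.39 with dCBP (SE 0.11, adjusted p = 0.00889) and -0.36 with A485 (SE 0.11, adjusted p = 0.0368).

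AARS1, the alanine tRNA synthetase, whose promoter is printed above, was 118.6 and 117.7 CPM in DMSO and NT at 6 h. It was 104.9 and 115.6 CPM with 100 and 1000 nM A485, 173.6 and 159.9 CPM with dCBP, 135.5 and 147.7 CPM with IHK-44, and 104.6 and 117.7 CPM with JQAD. At 2 h all 10 libraries lay between 101.0 and 116.4 CPM. The dCBP libraries were the highest, IHK-44 next, and both were above the controls. The rise of 0.34 with dCBP passed (SE 0.09, adjusted p = 0.00451) and the change of 0.09 with IHK-44 did not (adjusted p = 0.414).

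FARSB, the beta chain of the phenylalanine enzyme, was 101.6 and 95.9 CPM in the controls at 6 h and 71.2 CPM with 100 nM dCBP, but 93.6 CPM with 1000 nM dCBP. It was 95.8 and 90.6 CPM with 100 and 1000 nM A485, 99.4 and 97.3 CPM with IHK-44, and 102.0 and 93.1 CPM with JQAD. At 2 h FARSB ran from 90.3 to 104.6 CPM. Its partner FARSA, which encodes the alpha chain, went the other way in the same library, with 83.5 CPM at 100 nM dCBP beside 58.5 CPM at 1000 nM and 55.8 and 59.4 CPM in the controls. The fall of FARSB with dCBP was 0.42 (SE 0.10, adjusted p = 0.00318).

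That library, 100 nM dCBP at 6 h, held the highest value of all 20 for AARS1, CARS1, FARSA, HARS1, MARS1 and SARS1 and the lowest for FARSB, IARS1 and LARS1. MARS1 was 327.0 CPM there beside 260.6 CPM at 1000 nM, and IARS1 was 236.6 CPM beside 283.7 CPM. These genes were picked out after their values were seen. Over the fits that left out 1 library, 13 to 23 members were called for dCBP at 6 h, and 23 without the 1000 nM library. IARS1 lost its call with dCBP without the 100 nM library (adjusted p = 0.0599). LARS1 and TARS1 lost theirs without that library, DMSO or NT (adjusted p up to 0.136 and 0.161), and WARS1 without DMSO or 1000 nM dCBP (up to 0.0689).

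TARS1, for threonine, was 136.7 and 137.3 CPM in the controls at 6 h, 119.6 and 125.6 CPM with 100 and 1000 nM IHK-44, 125.8 and 137.5 CPM with dCBP, 133.1 and 121.7 CPM with A485, and 130.6 and 130.7 CPM with JQAD. In the 2 h libraries it ran from 127.9 to 143.5 CPM. VARS1, for valine, was 146.2 and 148.0 CPM in the controls at 6 h, 127.5 and 120.8 CPM with IHK-44, 161.9 and 110.9 CPM with dCBP, 135.4 and 125.1 CPM with A485, and 149.7 and 177.5 CPM with JQAD. At 2 h VARS1 ran from 152.0 to 170.6 CPM. The IHK-44 libraries of both genes were below the controls, and the dCBP libraries of VARS1 lay on either side of them. TARS1 fell by 0.33 with IHK-44 (SE 0.08, adjusted p = 0.00461) and VARS1 by 0.41 (SE 0.14, adjusted p = 0.0286). TARS1 and WARS1 with IHK-44 and AARS1 and FARSB with dCBP were called in every fit that left out 1 library. VARS1 and LARS1 with IHK-44 lost the call without any 1 of the 4 libraries (adjusted p up to 0.158 and 0.126), and YARS1 without DMSO, NT or 100 nM IHK-44 (up to 0.115).

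**Figure D4:**
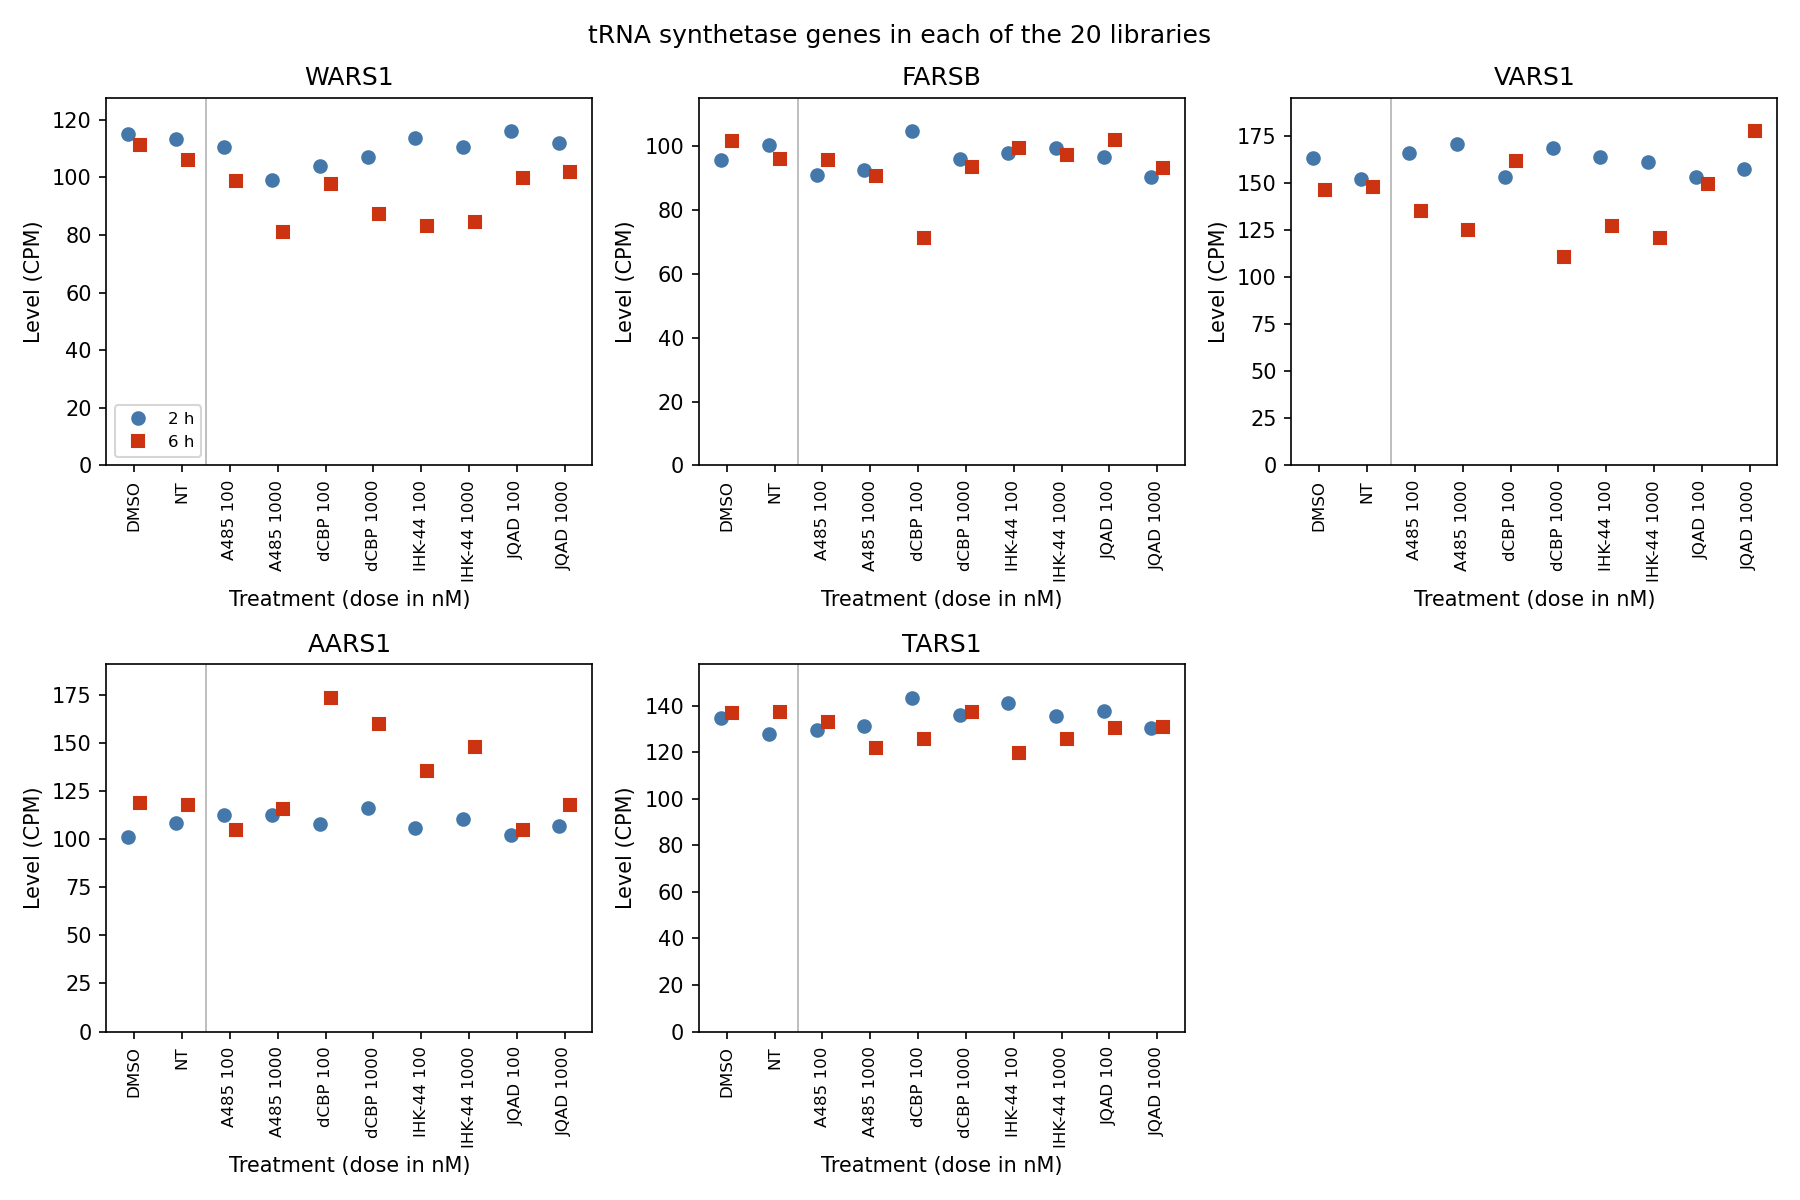
Level in CPM (y axis, linear from 0) of the 5 synthetase genes with the largest change past the threshold at 6 h, in each of the 20 libraries (x axis: treatment and dose in nM; circles 2 h, squares 6 h; 1 library per point, no error bar). WARS1 is low at 6 h with IHK-44 and 1000 nM A485, AARS1 is high with dCBP at 173.6 and 159.9 CPM, and FARSB is low in the 100 nM dCBP library alone at 71.2 CPM.

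The other genes of the pathway were taken from lists made for this purpose. Of 36 further ATF4 targets, 31 were tested, and at 6 h 6 rose and 14 fell with IHK-44, 8 rose and 11 fell with dCBP, and 3 fell with A485. Of all genes 20.7% were higher and 21.4% lower with IHK-44, 23.2% and 22.4% with dCBP, and 7.87% and 8.7% with A485. GADD45A, a growth arrest gene, fell from a control mean of 65.3 CPM to 16.3 CPM with IHK-44 and 19.5 CPM with dCBP (log2 -2.17 and -1.90). STC2, a secreted glycoprotein, fell from 429.3 CPM to 128.1 and 105.9 CPM. The amino acid transporter SLC38A2 fell from 554.4 CPM to 211.9 and 169.0 CPM, and the glutamine transporter SLC1A5 fell with IHK-44, dCBP and A485 (log2 -1.04, -0.47 and -0.66). ULBP1, a ligand of natural killer cells, rose by 0.99 with IHK-44 and 1.11 with dCBP. With total counts as the scaling the split was 6 higher and 13 lower for IHK-44 and 10 higher and 7 lower for dCBP. Of all 13260 genes, 4699 were then higher and 2166 lower with IHK-44, and 4703 higher and 2158 lower with dCBP. SLC1A5 with dCBP no longer passed under that scaling.

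Upstream of ATF4, 17 genes of the eIF2 pathway were counted: eIF2, its kinases and phosphatases, and others such as EIF2B4, OMA1 and IMPACT. Of them 3 rose and 1 fell with IHK-44, 4 rose and 4 fell (EIF2S1, EIF2S3, OMA1 and IMPACT) with dCBP, and 1 rose with A485. In either direction that is 23.5% with IHK-44 and 47.1% with dCBP, below and near the 42.1% and 45.5% of all genes. EIF2AK3 (PERK), the eIF2 kinase of the endoplasmic reticulum, rose by 0.38 with IHK-44 and 0.39 with dCBP, and PPP1R15B, a subunit of the phosphatase, rose by 0.25, 0.27 and 0.33 with IHK-44, dCBP and A485. Under total counts none of the 17 was lower, and 9 were higher with IHK-44 and 6 with dCBP. Of all 13260 genes, 4699 were then higher and 2166 lower with IHK-44, and 4703 higher and 2158 lower with dCBP. Of 18 genes of the unfolded protein response, 5 rose and 2 fell with IHK-44, and 8 rose and 2 fell with dCBP (10 and 1, and 12 and 0, under total counts), or 38.9% and 55.6% beside the same 42.1% and 45.5%. With A485 1 of the 18 rose and 1 fell, beside 7.87% and 8.7% of all genes. ERN1 (IRE1), a stress sensor of the endoplasmic reticulum, rose from 16.5 CPM to 46.0 CPM with IHK-44 and 45.0 CPM with dCBP, and to 29.2 CPM with A485. HERPUD1, of the same list, went the other way at 6 h with A485 and IHK-44 (log2 -0.45 and -0.40). At 2 h HERPUD1 was lower with A485, IHK-44 and dCBP (log2 -0.60, -0.60 and -0.46).

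Groups close to the synthetases were counted too. In the complex that holds several cytosolic synthetases, AIMP2, a scaffold, fell by 0.86, 0.87 and 0.69 with IHK-44, dCBP and A485. Of 17 mitochondrial synthetases, 5 rose with IHK-44 and 6 with dCBP, beside 20.7% and 23.2% of all genes higher. CARS2 rose by 0.50 and 0.75 and VARS2 by 0.51 and 0.71 with IHK-44 and dCBP. In either direction 42.1% of all genes were called with IHK-44, 45.5% with dCBP and 16.6% with A485.

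Dose was tested within each compound over both times. Only ATF3 with A485 passed, 1 of 19 stress genes beside 0.929% of all genes (122 of 13137), 0.0761% higher and 0.853% lower, and its difference, the higher dose minus the lower, was -1.32 (log2, SE 0.22, adjusted p = 0.0204). Its means were 9.33 CPM at 1000 nM and 22.1 CPM at 100 nM. Any 1 of the 4 A485 libraries left out ended the call. For A485 the dose difference was -0.87 in DDIT4 (SE 0.21, adjusted p = 0.0952), 0.95 in CHAC1 (SE 0.25, adjusted p = 0.122), 0.52 in SESN2 (SE 0.17, adjusted p = 0.235) and -0.45 in SLC7A5 (SE 0.16, adjusted p = 0.301). In all, 6 stress genes and 1 synthetase, WARS1, had an unadjusted p under 0.05 for A485. The share of all genes at that level is not given here. For dCBP, IHK-44 and JQAD no member passed, beside 0.0%, 0.107% and 0.0% of all genes, and none had an unadjusted p under 0.05.

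Whether an effect differed between 2 h and 6 h was tested as the change at 6 h minus that at 2 h. Of the 38 members, 3 passed with IHK-44, beside 9.89% of all genes (2.13% with a positive difference and 7.76% with a negative one), and 1 with dCBP, beside 9.06% (2.66% positive and 6.4% negative). None passed with A485, beside 0.00754% of all genes, or with JQAD, beside 0.0%. SLC7A5 dropped further at 6 h with both IHK-44 and dCBP, and SLC3A2 with IHK-44, while the fall of DDIT4 with IHK-44 was smaller at 6 h.

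The compounds were also set against each other at 6 h, over both doses, in 6 pairs. Between IHK-44 and dCBP no member passed, beside 0.00754% of all genes (1 of 13260, with 1380 at an unadjusted p under 0.05), and 3 stress genes and 5 synthetases had an unadjusted p under 0.05. The 95% interval of the difference, IHK-44 minus dCBP, was -1.40 to 0.04 for CHAC1, -0.81 to 0.04 for SESN2, -0.73 to 0.04 for SLC7A5, -0.63 to 0.96 for SLC7A11 and -0.44 to -0.06 for AARS1. These bounds leave room for differences, and over the synthetases they ran from -0.47 to 0.47. Here and below the intervals were computed with 10 degrees of freedom, apart from the test. Some therefore span no difference where the unadjusted p is under 0.05. Without the 1000 nM dCBP library 9 members passed in this pair.

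Against A485, dCBP had higher SESN2, CHAC1, DDIT3 and PHGDH and lower ATF3 and SLC7A11, 6 of 19 stress genes beside 26.6% of all genes called. SLC7A11 was lower by 2.49 (SE 0.33, adjusted p = 0.000672), CHAC1 higher by 1.49 (SE 0.34, adjusted p = 0.0071) and PHGDH higher by 0.55 (SE 0.13, adjusted p = 0.0068). The synthetases AARS1, CARS1 and MARS1 were higher with dCBP than with A485, by 0.53, 0.46 and 0.32. Under total counts 6 stress genes were higher and 2 lower, and 5 synthetases higher, beside 2425 higher and 1439 lower of all 13260 genes. IHK-44 had lower ATF3, SLC7A11 and SLC7A5 and higher AARS1 than A485, 4 of 38 members beside 12.9% of all genes called, 3.47% higher and 9.41% lower. Under total counts 1 stress gene was higher and 3 lower, and 2 synthetases higher, beside 851 higher and 962 lower of all 13260 genes. In both pairs SLC7A11 was the only stress gene called in every fit that left out 1 library, and over those fits its difference ran from -3.01 to -1.77 for dCBP and from -2.82 to -1.61 for IHK-44.

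JQAD differed from dCBP in 11 stress genes (6 higher and 5 lower with JQAD) and 5 synthetases (3 higher and 2 lower), beside 43.1% of all genes, 21.3% higher and 21.7% lower. From IHK-44 it differed in 11 stress genes (6 higher and 5 lower) and 4 synthetases, all higher, beside 41.7%, 21.4% higher and 20.3% lower. Which synthetases passed depended on the scaling. Under total counts 5 were lower and 0 higher than with dCBP, and 5 lower and 2 higher than with IHK-44. AARS1 and CARS1 stayed lower than with dCBP, and VARS1 and WARS1 stayed higher than with IHK-44. The stress genes then split 6 higher to 8 lower and 6 to 5. Over all 13260 genes 2075 were then higher and 4450 lower than with dCBP, and 2113 higher and 4451 lower than with IHK-44. Both sets of 11 held ATF3, DDIT3, DDIT4, TRIB3, CHAC1, ASNS, SESN2, SLC7A11, SLC7A5, SLC3A2 and MTHFD2. JQAD differed from A485 in 3 stress genes, DDIT4 and SLC7A5 (higher) and SESN2 (lower), beside 14.0%. Under total counts 2 stress genes were higher and 2 lower, beside 878 higher and 1404 lower of all 13260 genes. Against the controls at 6 h, the 95% intervals for JQAD ran from -0.84 to 1.13 over the stress genes, with the lowest bound in SLC7A11 and the highest in CHAC1, and from -0.35 to 0.47 over the synthetases. These comparisons share the JQAD and control libraries and are not independent of each other.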

How the data were processed

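Total RNA of RH4 cells was sequenced in 20 libraries, 1 per treatment, dose and time, with 13466631 to 16799327 coding counts each. The authors deposited expected counts, CPM and FPKM per coding gene for each library. 88.2% of the deposited expected counts were whole, and the deposited CPM equal these counts scaled to 1000000 per library. The submitters' processing notes name STAR 2.5.3a and RSEM 1.3.3, BWA 0.7.17, MACS3 3.0.0a6 and HOMER 4.9.1, and the builds hg38 and mm10, with no role for each. Strandedness and the handling of shared reads are not given in the sources used here.

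After rounding, the expected counts entered edgeR 4.0.16 (quasi-likelihood, TMM scaling, R 4.3.3) in 10 cells of 2 libraries, which left 13260 genes after the filter on low counts and 10 residual degrees of freedom. Dose was tested in the 16 treated libraries with compound and time as blocks (13137 genes, 4 residual degrees of freedom). The threshold was a Benjamini-Hochberg adjusted p of 0.05 over all genes tested. The script was tested on simulated data. Alternatives were DESeq2 1.42.0, its size factors, no filter, DMSO alone as control, 1 effect per compound over both times, log2(CPM + 1), each library left out, and total counts as the scaling, which was added after seeing the data.

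The 38 genes, the other lists and the rule for printed values were chosen with earlier results of these data known. Values in every library are given for ATF4 and for the 5 genes of each list with the largest change past the threshold at 6 h, and other lists are named by up to 6 genes. The 11 ChIP-seq samples and the 1 ChRO-seq sample were not analysed here. Some results of the other lists are not reported here.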

Additional observations from a re-analysis of the deposited data

Results flagged for a closer look

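In 4 cases the change against DMSO and NT differed between 2 h and 6 h by the test of that difference, the log2 change at 6 h minus that at 2 h (edgeR, adjusted over 13260 genes). These were 3 of 38 members with IHK-44, beside 9.89% of all genes, and 1 of 38 with dCBP, beside 9.06%. For SLC7A5, the leucine transporter LAT1, it was -1.32 with IHK-44 (SE 0.24, adjusted p = 0.00358) and -0.91 with dCBP (SE 0.24, adjusted p = 0.0282). For SLC3A2, its partner chain, it was -0.64 with IHK-44 (SE 0.18, adjusted p = 0.0368). For DDIT4 it was 1.31 with IHK-44 (SE 0.40, adjusted p = 0.0467), with a mean of 4.61 CPM at 2 h and 9.19 CPM at 6 h. SLC7A5 with IHK-44 was called in all 8 fits that left out 1 library. SLC3A2 and DDIT4 with IHK-44 lost the call in each of them (adjusted p up to 0.128 and 0.162), and SLC7A5 with dCBP lost it in 7 of 8 and kept it without 100 nM dCBP at 6 h. With total counts as the scaling SLC3A2 no longer passed. No condition had a replicate, so no sample could be tested for standing apart within its group.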

How the results depend on the processing

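Counts are of the 38 members past the threshold, with the value of the main test in parentheses. The share of all genes under each setting is not given in this section. For culture time, DESeq2 gave 1, DMSO and NT alone with the treatment as a block 5, and DMSO, NT and JQAD together 2 (0). For A485 at 2 h, DESeq2 gave 2, its size factors 1, no filter 3 and total counts 1 (0). With DMSO alone as control the count was 0 for A485 at 6 h (6), 0 for dCBP at 2 h (5), 11 for dCBP at 6 h (18), 1 for IHK-44 at 2 h (4), 9 for IHK-44 at 6 h (18), and 0 for the time dependence of dCBP (1) and of IHK-44 (3). With 1 effect per compound over both times and DMSO alone as control, which changes the model and the control together, it was 0 for A485 at 6 h, 9 for dCBP at 2 h and at 6 h, and 6 for IHK-44 at 6 h. The time dependence of dCBP gave 2 by DESeq2 and 3 with no filter. JQAD against A485 gave 7 by DESeq2 and 7 with no filter (3), and the dose of A485 gave 2 with no filter (1).

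With each library left out in turn the count ran from 0 to 3 for A485 at 2 h, 0 to 9 for A485 at 6 h, 0 to 1 for dCBP at 2 h, 1 to 2 for IHK-44 at 2 h and 9 to 13 for IHK-44 at 6 h. It ran from 0 to 1 for the time dependence of A485, 0 to 5 for that of dCBP, and was 1 in each fit for that of IHK-44. It ran from 2 to 15 for dCBP against A485, 1 to 8 for IHK-44 against A485, 0 to 7 for JQAD against A485, 0 to 9 for IHK-44 against dCBP, and 0 to 2 for the dose of dCBP, and was 0 in each fit for the dose of A485. Of 108 values of single genes, total counts ended 22 calls, DESeq2 3, its size factors 5 and no filter 5. DMSO alone as control ended 34 and kept 21, 1 effect per compound with DMSO ended 29 and kept 22, and leaving out 1 library ended 183 and kept 265. On log2(CPM + 1) 38 values moved by more than 1 SE and 66 by less, and no value reversed under these settings. The causes were not tested. No paired analysis by replicate number was possible because the labels give none, and the blocks fitted were the treatment (culture time) and compound by time (dose). Depth limits the lowest genes most, with 34 counts in the lowest library of CHAC1.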
